A study of Mus musculus with 8 samples.

Results

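The Notch family genes of the mouse were followed in whole embryos that carry a promoter insertion in the imprinted Dlk1-Dio3 domain. The members are the 4 receptor genes Notch1, Notch2, Notch3 and Notch4, the 3 Delta-like ligand genes Dll1, Dll3 and Dll4, and the 2 Jagged ligand genes Jag1 and Jag2, found through their Ensembl gene identifiers. All 9 were present among the 29639 genes of the mRNA table, and all 9 passed a filter of 1 FPKM (fragments scaled to transcript length and to all fragments mapped in the column, a level per length) in at least 2 columns, which kept 13279 genes. Notch4 and Dll4 passed it in 3 of the 4 columns and lay under 1 FPKM in the MKI column. Dlk1, which lies in the domain and encodes a related protein, is given for context only.

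The insertion puts 3 polyadenylation cassettes, sequences that end transcription early, into the promoter of Gtl2 (also called Meg3), and was made with Easi-CRISPR. PKI embryos carry the Gtl2 polyA knock-in on the paternal copy, MKI embryos on the maternal copy and HOMO embryos on both copies. WT embryos are wild type and carry none. Embryos were taken at embryonic day 12.5 by the series' design text, whereas the sample titles read E12.6 for PKI, E12.7 for MKI, E12.8 for HOMO and E12.5 for WT. The sources used here do not name the strain, the number of founder animals, or whether a sample holds a single embryo. The labels list 8 samples, 2 per genotype, but the table has 1 column per genotype, so no difference between genotypes has a replicate check, no p-value can be given, and how far apart columns of 1 genotype would lie is unknown. Because each value is an average over a whole embryo, fewer cells of a type and less RNA per cell cannot be told apart.

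Notch signalling passes between cells that touch. A Delta-like or Jagged ligand on a cell surface binds a Notch receptor on the neighbouring cell, the receptor is cut, and its inner fragment enters the nucleus and joins the DNA-binding protein Rbpj to switch on genes such as those of the Hes and Hey families. In the mid-gestation embryo the pathway is known for keeping neural progenitors undifferentiated, for somite formation and for arterial and mural cell development. Dll3 stands apart among the Delta-like proteins because it does not activate receptors on neighbouring cells and acts inside the cell that makes it. Dlk1 lacks the domain by which the canonical ligands bind receptors and has been described mainly as an inhibitor of the pathway.

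The 9 genes lie on 5 chromosomes, and 1 of them shares a chromosome with the insertion. In GRCm38, Notch1 spans chr2:26457902-26503822 on the minus strand, Notch2 chr3:98013538-98150367 on the plus strand, Notch3 chr17:32120820-32166896 on the minus strand and Notch4 chr17:34564286-34588543 on the plus strand. Among the ligands, Dll1 spans chr17:15367354-15376932 on the minus strand, Dll3 chr7:28293555-28301785 on the minus strand, Dll4 chr2:119325784-119335666 on the plus strand, Jag1 chr2:137081451-137116520 on the minus strand and Jag2 chr12:112907803-112929812 on the minus strand. Jag2 starts 3.37 Mb beyond the start of Meg3 and 2.63 Mb beyond the end of Dio3, the last protein-coding gene of the domain. Other RefSeq genes overlap the spans of Notch1 (0610009E02Rik and Mir6996), Notch2 (Gm40103), Notch3 (Gm38585 and Gm41568), Dll4 (Gm14207) and Jag2 (Mir6941), and the sources used here do not say whether the authors' quantification used strand.

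The 250 bases directly upstream of the start site are shown for 4 members whose responses, described further on, differ. The RefSeq sequence of build GRCm38.p6 is written 5′ to 3′ along the gene's own strand. Capitals mark the GC box GGGCGG on either strand (CCGCCC on the other), the site of Sp1-type factors. The Notch1 window is chr2:26503823-26504072 (minus strand), that of Notch2 chr3:98013288-98013537 (plus strand), that of Dll3 chr7:28301786-28302035 (minus strand) and that of Jag1 chr2:137116521-137116770 (minus strand).
Notch1: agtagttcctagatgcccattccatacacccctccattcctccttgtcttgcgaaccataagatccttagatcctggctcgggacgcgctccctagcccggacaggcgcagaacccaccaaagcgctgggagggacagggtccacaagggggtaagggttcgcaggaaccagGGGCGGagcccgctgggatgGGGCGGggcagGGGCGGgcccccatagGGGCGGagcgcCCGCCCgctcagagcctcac
Notch2: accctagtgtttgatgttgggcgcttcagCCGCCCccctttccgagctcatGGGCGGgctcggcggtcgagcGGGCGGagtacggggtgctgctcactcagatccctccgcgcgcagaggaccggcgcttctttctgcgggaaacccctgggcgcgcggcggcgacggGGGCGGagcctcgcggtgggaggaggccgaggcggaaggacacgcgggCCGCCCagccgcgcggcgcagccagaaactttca
Dll3: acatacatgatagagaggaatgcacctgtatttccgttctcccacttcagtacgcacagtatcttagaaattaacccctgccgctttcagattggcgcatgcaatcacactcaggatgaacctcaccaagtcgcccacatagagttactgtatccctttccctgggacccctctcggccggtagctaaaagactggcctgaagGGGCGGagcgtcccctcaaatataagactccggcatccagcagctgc
Jag1: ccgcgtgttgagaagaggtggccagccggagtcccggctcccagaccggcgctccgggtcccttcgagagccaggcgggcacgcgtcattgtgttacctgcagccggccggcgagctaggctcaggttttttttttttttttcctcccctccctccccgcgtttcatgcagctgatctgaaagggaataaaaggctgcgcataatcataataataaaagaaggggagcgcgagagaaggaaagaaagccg
The Notch1 and Notch2 windows hold 5 GC boxes each, the Dll3 window holds 1, and the Jag1 window holds 0. GC content was 66.0% for Notch1, 72.0% for Notch2, 52.0% for Dll3 and 57.2% for Jag1, against a median of 52.4% over all 32851 RefSeq promoters of this length. At least 1 GC box was present in 6 of the 9 members and in 32.7% of all promoters. The core TGGGAA, the letters Rbpj prefers, was searched on both strands and was in 0 of the 9 members' windows and in 21.6% of all promoters. No GC boxes overlap one another in the windows shown. A match or its lack in these windows is a description only.

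The labels of the small-RNA columns were compared with a microRNA of the domain, since Meg3 itself was not analysed here. miR-127-3p (chromosome 12, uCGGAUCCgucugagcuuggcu, seed in capitals) is made from the maternal copy and stood at 26139.5 RPM (reads scaled to a common total) in PKI, 455 RPM in MKI and 794 RPM in HOMO, against 26481 RPM in WT. MKI and HOMO, the columns labelled as carrying a maternal insertion, were thus the low ones. This microRNA cannot tell MKI from HOMO or PKI from WT, and it does not check the labels of the mRNA columns. The MKI mRNA column stood apart from the others: its log2 values had a Pearson's r of 0.864 to 0.882 with the other columns across genes, which are not independent replicates, while those 3 columns had 0.961 to 0.975 with each other. Genes above 0 numbered 21036 in PKI, 19885 in MKI, 20758 in HOMO and 21190 in WT. The depth behind the FPKM values is unknown. Differences are given on the log2(FPKM + 0.5) scale, which understates folds of low genes, and a gene past 1 on that scale is called past 2-fold.

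Among the receptors the 3 abundant genes were close to one another in WT and HOMO and Notch4 was far lower. Notch1, which acts in nearly all tissues that use the pathway, had 14.6 FPKM in PKI, 9.78 FPKM in MKI and 24.0 FPKM in HOMO, against 24.5 FPKM in WT. Notch2, which is broadly expressed and acts in kidney, liver and mural cells, had 17.4 FPKM in PKI, 14.3 FPKM in MKI and 24.4 FPKM in HOMO, against 26.2 FPKM in WT. Both genes were near WT in HOMO and lower in the 2 single-copy knock-ins, with MKI lowest.

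Notch3, the receptor of arterial smooth muscle and pericytes that neural progenitors also express, had 16.9 FPKM in PKI, 7.06 FPKM in MKI and 26.4 FPKM in HOMO, against 26.5 FPKM in WT. Notch4, the endothelial receptor, had 1.52 FPKM in PKI, 0.917 FPKM in MKI and 2.75 FPKM in HOMO, against 2.27 FPKM in WT. Notch3 thus matched the order of Notch1 and Notch2 with a lower MKI value, and Notch4 was highest in HOMO.

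The Delta-like ligands followed the receptors in order. Dll1, the ligand of neural progenitors and presomitic mesoderm, had 7.97 FPKM in PKI, 6.77 FPKM in MKI and 13.1 FPKM in HOMO, against 12.4 FPKM in WT. Dll3 had 4.07 FPKM in PKI, 1.54 FPKM in MKI and 6.75 FPKM in HOMO, against 6.07 FPKM in WT. Dll4, the ligand of arterial and sprouting endothelium, had 1.16 FPKM in PKI, 0.535 FPKM in MKI and 1.50 FPKM in HOMO, against 1.89 FPKM in WT. MKI was lowest and PKI next for all 3, and HOMO was above WT for Dll1 and Dll3 and below it for Dll4.

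The Jagged ligands differed from each other. Jag1, needed for arterial smooth muscle and inner ear sensory patches, had 9.52 FPKM in PKI, 8.34 FPKM in MKI and 10.2 FPKM in HOMO, against 11.6 FPKM in WT, the narrowest spread of the 9 as a fold between columns. Jag2, known from limb, palate and thymus, had 4.40 FPKM in PKI, 1.04 FPKM in MKI and 4.20 FPKM in HOMO, against 4.01 FPKM in WT. Jag2 was low in MKI alone and was the only member highest in PKI.

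**Figure D1:**
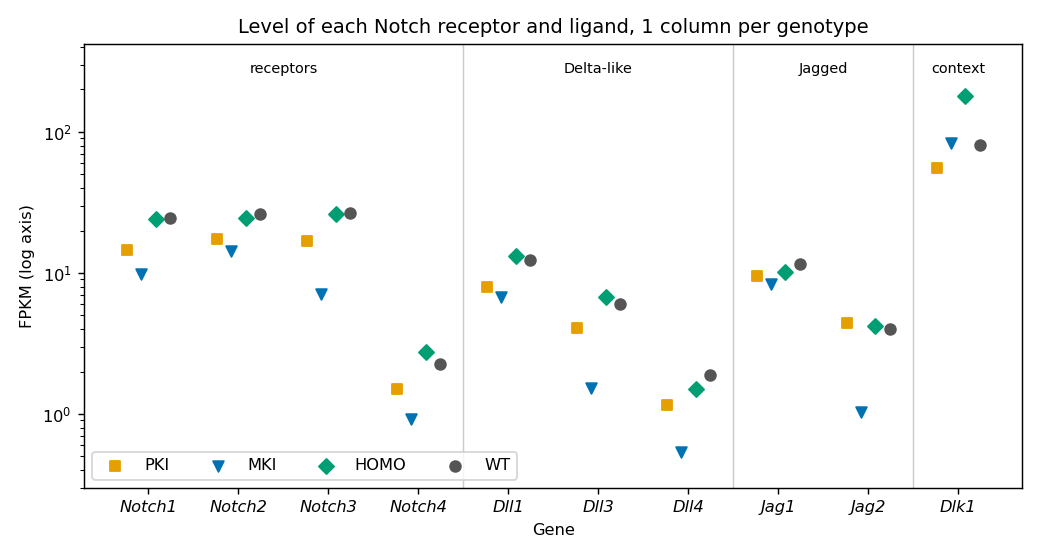
FPKM (log axis) of the 4 receptors, 3 Delta-like and 2 Jagged ligands and Dlk1, with 1 point per genotype column (PKI, MKI, HOMO, WT from left to right) and therefore no error bars. The MKI point is the lowest for each of the 9 receptors and ligands, while Dlk1 is lowest in PKI (55.7 FPKM) and highest in HOMO (181 FPKM).

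Ranked by level, HOMO and WT gave the same order of the 9 genes, Notch3, Notch2, Notch1, Dll1, Jag1, Dll3, Jag2, Notch4 and Dll4 from high to low. In PKI the order was Notch2, Notch3, Notch1, Jag1, Dll1, Jag2, Dll3, Notch4 and Dll4, and in MKI it was Notch2, Notch1, Jag1, Notch3, Dll1, Dll3, Jag2, Notch4 and Dll4. Neighbours in these orders cannot be called different, since a column has no spread. Dll4 was the lowest of the 9 in every column and Notch4 the next.

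Summed over the 4 receptors the level was 50.4 FPKM in PKI, 32.0 FPKM in MKI and 77.5 FPKM in HOMO, against 79.5 FPKM in WT. The summed ligands stood at 27.1 FPKM in PKI, 18.2 FPKM in MKI and 35.7 FPKM in HOMO, against 36.0 FPKM in WT. The ratio of ligand to receptor sums was 0.538 in PKI, 0.569 in MKI and 0.461 in HOMO, and 0.452 in WT, so the receptor sum was further below WT than the ligand sum in both single-copy knock-ins.

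The make-up of the receptor sum was alike in 3 columns and differed in MKI. Notch3 made up 33.6% of receptor FPKM in PKI, 22.1% in MKI and 34% in HOMO, compared with 33.3% in WT, while Notch2 made up 34.5%, 44.5% and 31.5% in PKI, MKI and HOMO, against 33.0% in WT. The share of Notch1 stayed between 28.9% in PKI and 30.9% in HOMO.

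Among the ligands the Delta-like genes made up 48.7% of ligand FPKM in PKI, 48.5% in MKI and 59.7% in HOMO, compared with 56.5% in WT. Jag1 alone was 35.1% in PKI, 45.8% in MKI and 28.5% in HOMO, compared with 32.3% in WT. Jag2 had its largest share in PKI, at 16.2%, and its smallest in MKI, at 5.70%, against 11.2% in WT. Jag1 exceeded Dll1 in PKI and MKI, with Dll1 over Jag1 at 0.837 in PKI and 0.813 in MKI, whereas the ratio was 1.29 in HOMO and 1.06 in WT. Jag1 over Jag2 was 2.16 in PKI, 8.03 in MKI and 2.43 in HOMO, compared with 2.90 in WT.

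**Figure D2:**
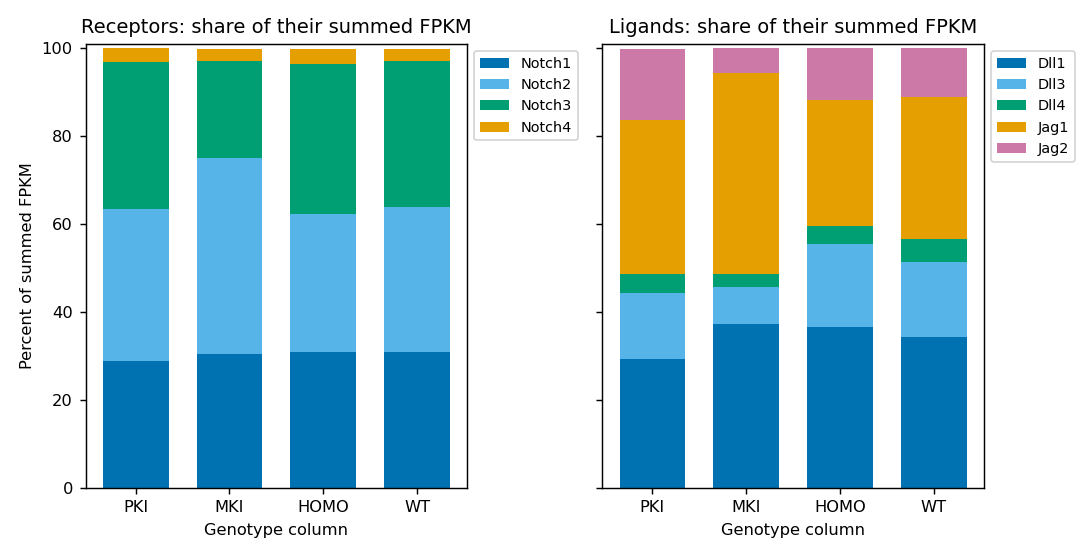
Stacked bars of the percent of summed receptor FPKM (left) and summed ligand FPKM (right) taken by each gene in the PKI, MKI, HOMO and WT columns, 1 column each. In MKI, Notch2 takes 44.5% and Notch3 22.1% of the receptor sum, and Jag1 takes 45.8% of the ligand sum.

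Against WT, a paternal insertion alone, as in PKI, went with modestly lower levels of 8 of the 9 genes. In PKI, 8 members lay below WT and 1, Jag2, above it, and none passed 2-fold in either direction. Of all 13279 genes, 1.45% were past 2-fold lower and 0.7% past 2-fold higher in PKI than WT, and 59.5% lay below WT. The members' median was -0.53 (range -0.73 to 0.12), against -0.07 over all genes tested. The receptors had a median of -0.61 and the ligands one of -0.52.

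The 4 receptors, Dll1, Dll3 and Dll4 lay between 59.5% (Notch1) and 67.0% (Dll3) of their WT level in PKI, a narrow range for genes whose WT levels ran from 1.89 to 26.5 FPKM. Jag1 was at 81.8% of WT and Jag2 at 110%. Among all genes tested, ordered from lowest to highest difference, Notch1 stood at percentile 4.11, Notch3 at 6.18 and Dll1 at 6.79, while Jag1 stood at 23.7 and Jag2 at 74.4.

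A maternal insertion alone, as in MKI, went with lower levels of all 9 genes and with larger differences. In MKI all 9 members lay below WT, and 5 were past 2-fold lower, namely Notch1, Notch3, Dll3, Dll4 and Jag2, with none past 2-fold higher, while 55.4% of all genes tested lay below WT. This column was lower for many genes, since 19.1% of all genes tested were past 2-fold lower and 1.22% past 2-fold higher in MKI than WT. Under quantile normalization those shares were 12.5% and 4.37%, and the median of all genes moved to 0.12, against -0.11 as deposited. The members' median was -1.21 (range -1.84 to -0.46), with -1.13 over the receptors and -1.21 over the ligands.

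The members are given by their share of the WT level from lowest to highest, and neighbours in this order cannot be called different. Dll3 was at 25.3%, Jag2 at 25.9%, Notch3 at 26.7% and Dll4 at 28.3% of WT in MKI. Notch1 was at 39.9% and Notch4 at 40.3%, followed by Notch2 at 54.3%, Dll1 at 54.8% and Jag1 at 71.6%. On the log2 scale these differences were -1.69 for Dll3, -1.55 for Jag2, -1.84 for Notch3, -1.21 for Dll4, -1.28 for Notch1, -0.97 for Notch4, -0.86 for Notch2, -0.82 for Dll1 and -0.46 for Jag1. Percentiles among all genes tested ran from 3.90 for Notch3 to 36.0 for Jag1, so Jag1 lay within the broad range of the column. Just inside the 2-fold threshold was Dll4 and just outside it was Notch4, both under 1 FPKM in MKI.

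With the insertion on both copies the genes were close to WT. In HOMO 4 members lay above WT (Notch4, Dll1, Dll3 and Jag2) and 5 below it, and none passed 2-fold, where 0.783% of all genes tested were past 2-fold lower and 0.67% higher. The median was -0.01 (range -0.26 to 0.23), against -0.06 over all genes. HOMO held 97.7% of the WT level for Notch1, 93.0% for Notch2, 99.5% for Notch3 and 106% for Dll1. The differences of Notch1 and Notch3, -0.03 and -0.01, turned positive (0.02 and 0.03) under quantile normalization and (0.03 and 0.06) under median centring. The members farthest from WT were the 2 lowest-expressed, Notch4 at 121% and Dll4 at 79.3%.

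Set against PKI, the other column that shares a paternal insertion, HOMO was higher for 8 of the 9 members, with Jag2 as the exception at 95.4% of PKI. None passed 2-fold, and 1.55% of all genes tested were past 2-fold higher and 1.32% lower in HOMO than PKI. The median was 0.62 (range -0.06 to 0.70), against 0.01 over all genes tested, of which 51.1% lay above PKI. Notch4 was at 182% of PKI, Dll3 at 166%, Notch1 and Dll1 at 164% each, Notch3 at 156% and Notch2 at 141%. Dll4 was at 129% and Jag1 at 107%. Notch1 stood at percentile 95.6 of all genes, Notch4 at 95.5, Dll1 at 95.4 and Dll3 at 95.1, near the top of this comparison.

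HOMO was higher than MKI for all 9 members and for 52.4% of all genes tested. Notch1, Notch3, Notch4, Dll3 and Jag2, 5 in all, were past 2-fold higher and none lower, against 19.7% of all genes tested past 2-fold higher and 3.64% lower; under quantile normalization these shares were 14.7% and 7.73%. The median was 1.20 (range 0.27 to 1.83), against 0.06 over all genes tested. Dll3 was at 440% of MKI, Jag2 at 405% and Notch3 at 373%, while Jag1 was at 122%.

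MKI was lower than PKI for all 9 members and for 51.8% of all genes tested, though Dll1 (-0.22) came to 0.01 under quantile normalization. Notch3, Dll3 and Jag2, 3 in all, were past 2-fold lower and none higher, against 16.6% of all genes tested past 2-fold lower and 2.55% higher, or 12.4% and 5.31% under quantile normalization. The median was -0.55 (range -1.67 to -0.18), against -0.04 over all genes. Jag2 had the largest difference at 23.6% of PKI, then Dll3 at 37.7% and Notch3 at 41.7%. Dll1 and Jag1 were at 85.0% and 87.5%. These comparisons share columns with those against WT and are not independent of them.

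The maternal insertion therefore stood beside opposite differences in the 2 paternal backgrounds. For 8 of the 9 members MKI was lower than WT and HOMO was higher than PKI, a pairing that 34.3% of all genes tested (4554 of 13279) showed, and the 2 differences share no column. The difference between them, HOMO minus PKI less MKI minus WT, was 1 or more on the log2 scale for 8 of the 9 members and for 23.8% of all genes tested. It was 2.46 for Notch3, 2.36 for Dll3, 1.98 for Notch1, 1.66 for Notch4, 1.51 for Dll1, 1.49 for Jag2, 1.48 for Dll4, 1.34 for Notch2 and 0.55 for Jag1. Over all genes tested the median was 0.17, and Notch3 stood at percentile 98.6, Dll3 at 98.1 and Notch1 at 95.2, but Jag1 at 63.1. These values have no replicate check, and the column that stands apart, MKI, enters every one of them.

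**Figure D3:**
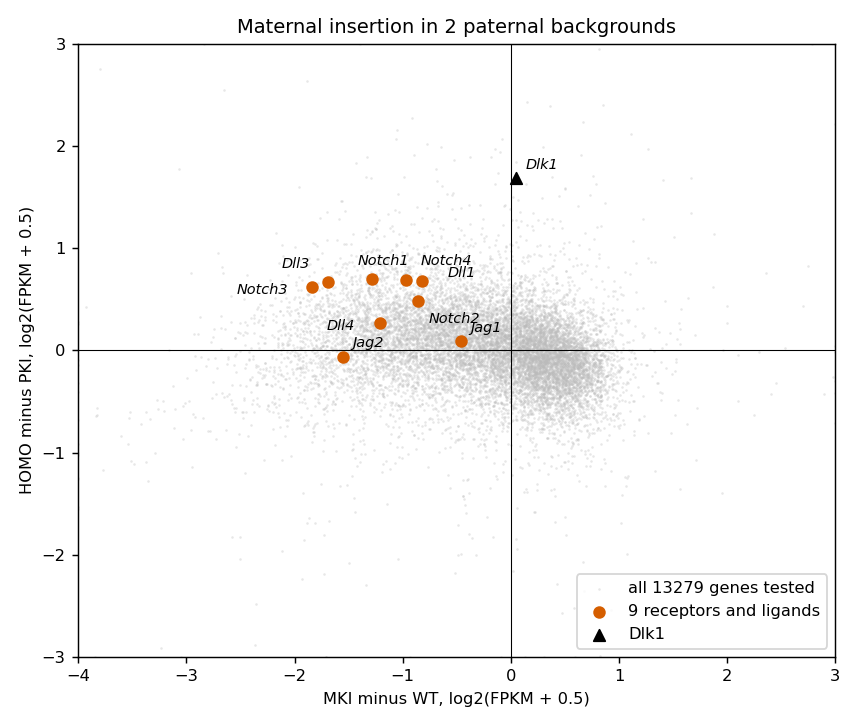
Each point is a gene, with MKI minus WT on the horizontal axis and HOMO minus PKI on the vertical axis, both on the log2(FPKM + 0.5) scale; genes beyond the axes are drawn at the edge. Of the 9 receptors and ligands (orange), 8 lie in the upper left part, lower in MKI than WT and higher in HOMO than PKI, and Jag2 lies just under the horizontal line, while Dlk1 (triangle) lies at 0.05 and 1.69.

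Gene span, the genomic length from first to last base, moved with the differences between columns. Over the 12330 genes with a RefSeq span, Spearman's rho between span and difference was 0.34 for MKI against WT, -0.28 for PKI against WT and -0.15 for HOMO against WT, where genes are not independent replicates. In MKI, genes of under 10000 bases had a median of -0.65 against WT and 35.7% of them were past 2-fold lower, whereas genes of 80000 bases or more had a median of 0.14 and 4.70% past 2-fold lower. In PKI the median ran the other way, 0.04 for genes of under 10000 bases and -0.20 for those of 80000 or more.

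In MKI each receptor and ligand lay below the median of all genes in its span range, and the part of span in these differences was not tested. Notch2, the longest member at 136830 bases, was at -0.86 where the median of its span range was 0.14. Notch1 (45921 bases) and Notch3 (46077 bases) were at -1.28 and -1.84 where the median was 0.12 and 9.49% of genes were past 2-fold lower. Notch4, Jag1 and Jag2, with spans of 24258, 35070 and 22010 bases, were at -0.97, -0.46 and -1.55 where the median was -0.06. The shortest, Dll1, Dll3 and Dll4 (9579, 8231 and 9883 bases), were at -0.82, -1.69 and -1.21 where the median was -0.65, so Dll1 was nearest to the median of its range.

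Over the 8723 genes with spans within the members' range, 16.6% were past 2-fold lower in MKI than WT, and over the 9833 genes with mean levels within the members' range 20.2% were. GC content of the 250 upstream bases had a Spearman's rho of -0.03 with the MKI difference over 9848 genes, but the relation did not run in 1 direction. The median was 0.16 under 45% GC, -0.05 from 45 to 55%, -0.25 from 55 to 65% and -0.09 at 65% or more. The shares past 2-fold lower were 9.27%, 16.9%, 21.4% and 18.8% in the same order. These 4 ranges held 0, 1, 3 and 5 of the members. The GC content and length of the transcripts themselves were not analysed here. Their part in the result was not tested.

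**Figure D4:**
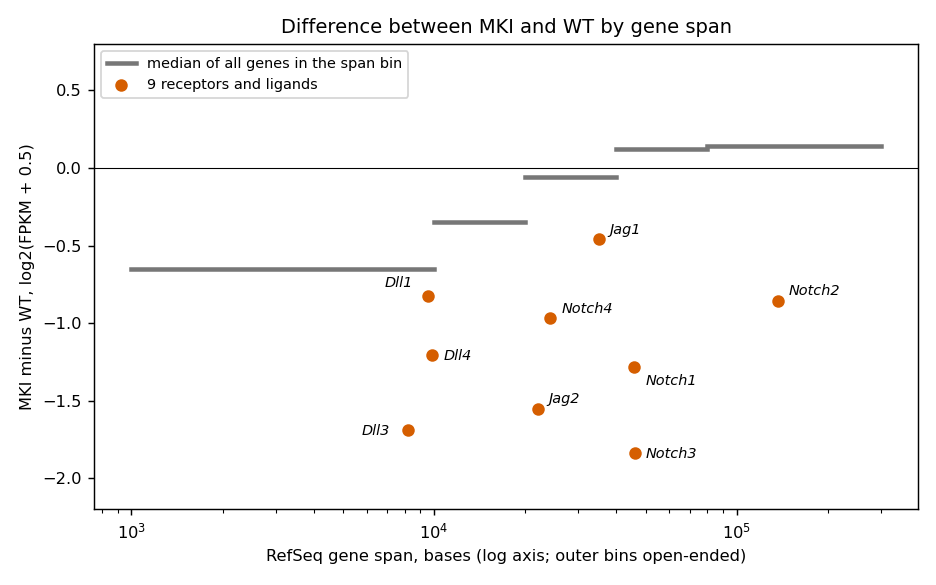
The log2(FPKM + 0.5) difference of MKI minus WT against RefSeq gene span (log axis), with points for the 9 receptors and ligands and grey bars for the median of all genes in 5 span ranges, the outer ones open-ended. The grey medians climb with span, from -0.65 under 10000 bases to 0.14 at 80000 bases or more, and every member lies under the bar of its range.

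The other genes of the pathway were taken from a list of 42 genes in 7 roles, of which 41 passed the filter. The target gene Hes7, an oscillating repressor of somite formation, did not, with at most 0.0753 FPKM in a column. In PKI 33 of the 41 lay below WT and 8 above, with 1 past 2-fold lower and a median of -0.22. In MKI 29 lay below and 12 above, with 16 past 2-fold lower, 0 past 2-fold higher and a median of -0.42. In HOMO 22 lay below and 19 above, with 1 past 2-fold higher and a median of -0.05. The share of all genes tested that lay below WT was 59.5% for PKI, 55.4% for MKI and 61.5% for HOMO, and the all-gene medians and shares past 2-fold are those given for the members.

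Sugar transferases modify the receptors and set which ligands they answer to. Of the 5 listed, the 3 Fringe genes were past 2-fold lower in MKI than WT and the other two were not. Lfng had 6.59 FPKM in PKI, 2.91 FPKM in MKI and 8.01 FPKM in HOMO, against 9.48 FPKM in WT, and Mfng had 8.03, 4.09 and 9.24 FPKM in PKI, MKI and HOMO, against 11.4 FPKM in WT. Rfng had 6.13, 2.62 and 8.46 FPKM in PKI, MKI and HOMO, against 6.45 FPKM in WT. Pofut1, which adds the fucose that Fringe proteins extend, was at -0.79 in MKI, and Poglut1, a glucosyltransferase, at 0.15.

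Ligand endocytosis genes, whose ubiquitin ligases let the sending cell pull on the receptor, were split. Mib1, the main such ligase, had 26.9 FPKM in PKI, 43.2 FPKM in MKI and 26.5 FPKM in HOMO, against 32.5 FPKM in WT. Mib2, Neurl1a and Neurl1b were past 2-fold lower in MKI than WT, with Neurl1a at 2.58 FPKM in PKI, 0.238 FPKM in MKI and 2.41 FPKM in HOMO, against 2.91 FPKM in WT. Mib1 was thus highest in MKI while its 3 relatives in the list were lowest there.

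Among the 9 cleavage genes, Furin, which cuts the receptor on its way to the surface, had 10.3 FPKM in PKI, 3.37 FPKM in MKI and 11.9 FPKM in HOMO, against 11.4 FPKM in WT. Aph1a and Psen2, parts of the γ-secretase complex that makes the final cut, were also past 2-fold lower in MKI than WT (-1.56 and -1.22). Adam10, the protease that cuts the bound receptor outside the cell, had its highest value in MKI, at 32.6 FPKM in PKI, 61.9 FPKM in MKI and 34.4 FPKM in HOMO, against 39.9 FPKM in WT. Psenen, another γ-secretase subunit, was the only listed gene past 2-fold higher than WT in HOMO, with 32.6 FPKM in PKI, 21.9 FPKM in MKI and 55.9 FPKM in HOMO, against 23.4 FPKM in WT.

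In the nuclear complex Rbpj itself went the other way from the receptors in MKI, with 7.64 FPKM in PKI, 20.9 FPKM in MKI and 9.46 FPKM in HOMO, against 12.4 FPKM in WT. Its difference from WT in PKI was -0.66, close to the receptors' median there. The coactivator genes Maml1, Maml2 and Maml3 were at -0.68, 0.37 and -0.24 in MKI.

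Of the 9 genes for inhibitors and turnover, Dtx1, Dtx2 and Dtx3, of the Deltex ubiquitin ligase family, and Numbl, a relative of the Notch inhibitor Numb, were past 2-fold lower in MKI than WT (-1.80, -1.78, -1.60 and -1.54). Itch, a ubiquitin ligase, lay above WT in MKI (0.60), and Dtx1 was the lowest of the group in PKI (-0.66). In HOMO this group ran from -0.32 for Dtx1 to 0.23 for Nrarp, a feedback inhibitor.

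Among the targets Hes5, which keeps neural progenitors undifferentiated, had 15.2 FPKM in PKI, 2.99 FPKM in MKI and 17.7 FPKM in HOMO, against 21.9 FPKM in WT, the largest difference of the list in MKI (-2.68). Hes1, a target in many tissues, had 15.3 FPKM in PKI, 9.84 FPKM in MKI and 13.3 FPKM in HOMO, against 13.2 FPKM in WT. Hey1, Hey2 and Heyl, targets in vessels and heart, were at -0.04, 0.60 and -0.90 in MKI and at -0.22, 0.39 and -0.34 in PKI. The targets therefore did not share a direction, either in PKI, where 3 of 5 lay below WT, or in MKI, where 4 of 5 did.

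**Figure D5:**
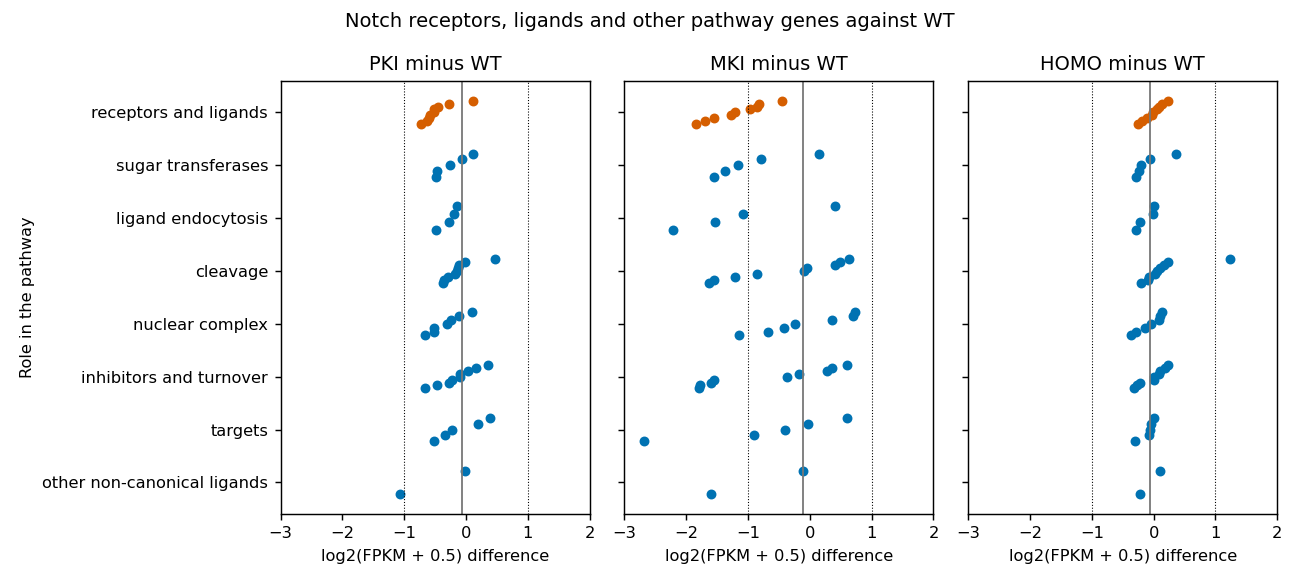
Differences from WT on the log2(FPKM + 0.5) scale for PKI, MKI and HOMO, with 1 point per gene in rows by role, receptors and ligands in orange at the top; the grey line is the median of all genes tested and the dotted lines mark 2-fold. Receptors and ligands all lie left of the grey line in MKI and within 0.26 of zero in HOMO.

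Beside Dlk1 the list held 2 further non-canonical ligands. Dner, a neuronal transmembrane protein, was the gene past 2-fold lower in PKI, with 7.31 FPKM in PKI, 14.8 FPKM in MKI and 13.7 FPKM in HOMO, against 15.9 FPKM in WT. Dlk2 had 1.07 FPKM in PKI, 0.028 FPKM in MKI and 1.22 FPKM in HOMO, against 1.10 FPKM in WT. Dlk1 had 55.7 FPKM in PKI, 83.4 FPKM in MKI and 181 FPKM in HOMO, against 80.5 FPKM in WT, so none of the 9 canonical genes shared its order of columns. Dlk1 over the summed canonical ligands was 2.05 in PKI, 4.58 in MKI and 5.06 in HOMO, compared with 2.24 in WT. In MKI Dlk1 was at 104% of WT and the ligand sum was low, at 18.2 FPKM against 36.0 FPKM in WT. In HOMO Dlk1 was at 225% of WT and the ligand sum was 35.7 FPKM.

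Markers of cell types that make Notch proteins had different levels in the columns too, and their part in the result was not tested. Over all 13279 genes tested, the share past 2-fold lower was 1.45% for PKI against WT. It was 19.1% for MKI against WT. The share of all genes under their WT value was 59.5% for PKI, 55.4% for MKI and 61.5% for HOMO. The counts of markers here and in the next paragraphs are to be read against these shares. Summed FPKM of 11 endothelial markers, among them Cdh5 and Kdr, was 57.3 in PKI, 68.5 in MKI and 88.0 in HOMO, compared with 80.4 in WT. In PKI 10 of the 11 lay below WT (median -0.44), where Notch4 was at -0.46 and Dll4 at -0.53. In MKI 6 lay above WT and 3 were past 2-fold lower (median 0.17), with Esam (-1.82) and Cldn5 (-1.68) the largest differences, whereas Notch4 and Dll4 were at -0.97 and -1.21. All 6 artery markers lay below WT in MKI (median -0.98), 2 of them past 2-fold, Unc5b (-1.37) and Gja4 (-1.31). Efnb2 and Cxcr4 were barely below it, at -0.04 each.

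The 9 mural markers, 8 of which passed the filter, summed to 123 FPKM in PKI, 82.4 FPKM in MKI and 110.1 FPKM in HOMO, against 120.4 FPKM in WT. Cspg4 (-1.69) and Pdgfrb (-1.23) had the largest differences among them in MKI, but the median of the 8 was -0.29, with 5 below WT, 3 of them past 2-fold, and 3 above. Notch3 stood at -1.84 there. In PKI, where Notch3 stood at -0.63, the mural median was -0.07.

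Neural markers lay mostly below WT in PKI and on both sides of it in MKI. The 10 neural progenitor markers, 9 of which passed the filter, summed to 184 FPKM in PKI, 275 FPKM in MKI and 177 FPKM in HOMO, against 195 FPKM in WT, most of it from Fabp7. Of the 9, 8 lay below WT in PKI, 2 of them past 2-fold, and Fabp7 lay above it (0.15); the medians were -0.66 for PKI, -0.34 for MKI and -0.26 for HOMO. Sox2 was at -3.02 in HOMO and -1.43 in PKI, and Neurog1 at -1.17 in PKI and -1.19 in MKI. All 10 neuron markers lay below WT in PKI (median -0.71), 2 of them past 2-fold, with Ina (-1.03) and Dcx (-1.02) farthest, and in HOMO (median -0.27), and 5 of 10 did in MKI (median 0.11), where Tubb3 (-2.13) was farthest.

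The remaining lists are given by their medians in PKI, MKI and HOMO against WT. Erythroid markers (8) had medians of -0.81, -1.12 and 0.29, hepatocyte markers (7) of -1.24, 0.51 and 0.17, and epidermal markers (7) of 1.03, 0.00 and 0.01. Macrophage markers (6) had medians of -0.04, -0.90 and 0.14, myogenic markers (5) of -0.06, -0.80 and -0.04 and cell division genes (6) of 0.08, 0.44 and -0.03. Of 6 presomitic mesoderm markers 1 passed the filter, and Tbx6, Mesp2, Msgn1 and Ripply2 were listed at 0 in at least 1 column.

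The genes most like each member were taken as the 3 with the smallest Euclidean distance over the log2 differences of PKI, MKI and HOMO from WT. Nearest to Notch1 were Mmp24 (0.029), Carmil3 (0.044) and Pcdh1 (0.077), nearest to Notch3 were Esam (0.076), Ankrd13b (0.102) and Rtn4r (0.104), and nearest to Dll3 were Tcirg1 (0.053), Syngr2 (0.061) and Zmiz2 (0.075). The nearest gene was Cyp4f16 for Notch2, Dvl3 for Notch4, Pou6f1 for Dll1, Kcnh2 for Dll4, St3gal5 for Jag1 and Pltp for Jag2. Esam, an adhesion protein of endothelial junctions, is the single one of these that was also on a marker list named here.

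Many unrelated genes lay as close, and the members were not each other's nearest genes. Within a distance of 0.2 there were from 18 genes for Notch3 to 194 for Jag1, and the only pair of members so close was Notch2 and Dll1 (0.187), with 66 genes nearer to Notch2 and 58 nearer to Dll1. Notch1 and Dll4 were nearest to each other among the members (0.313), as were Notch3 and Dll3 (0.234). Jag2 was farthest from the rest, with Dll3 at 0.664 as its nearest member.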

How the data were processed

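Whole-embryo RNA of 4 genotypes was selected with oligo(dT) beads, strand-marked with dUTP and sequenced as paired reads on a NovaSeq instrument, per the labels' protocols. The submitters' processing notes list the read trimmer cutadapt (1.9), the aligner HISAT2 (2.0.4), the quantifier StringTie (1.3.4d) and the build GRCm38, and give DESeq2 and edgeR no version or role. The headers name no unit; the deposited mRNA values were read as the authors' FPKM, since StringTie is listed and the values are not whole. The deposited microRNA values are RPM, scaled by the authors. The sources used here do not say whether a column is 1 library or combines both. No column was left unmatched to a genotype.

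Identifiers were matched to symbols for 22022 of 22036 Ensembl genes, the other 7603 being genes the authors assembled. Values of 40 entries sharing 20 symbols were summed, none of them a member. Genes at 1 FPKM or more in at least 2 columns were kept, and differences are of log2(FPKM + 0.5). A model across replicates (limma) had been planned for 2 libraries per group; with 1 column per group it could not be fitted, so differences are described against a 2-fold threshold, without p-values. Members, Dlk1 and the pathway and marker lists were chosen with earlier results of these data known. Named were all members, pathway genes past 2-fold from WT with the extremes of each role, up to 2 genes per marker list with the largest difference, and the 3 nearest genes by pattern; other genes named as examples (such as Cdh5 and Kdr, and further pathway genes within 2-fold) were chosen after their values were seen. Not every gene the rule selects is reported here. Spans are RefSeq's on GRCm38. Alternatives were pseudocounts of 0.1 and 1, no filter, a filter at 5 FPKM, quantile normalization and median centring. The steps were tested on simulated data and run with Python 3.11.15, pandas 2.3.3 and numpy 2.4.6.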

Additional observations from a re-analysis of the deposited data

Results flagged for a closer look

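In 8 of the 9 genes the maternal insertion went with opposite directions in the 2 paternal backgrounds, lower in MKI than WT and higher in HOMO than PKI. With 1 column per genotype the difference was not tested. On the log2 scale it was 1.98 for Notch1, 1.34 for Notch2, 2.46 for Notch3 and 1.66 for Notch4. Among the ligands it was 1.51 for Dll1, 2.36 for Dll3, 1.48 for Dll4 and 0.55 for Jag1. The same pairing was shown by 34.3% of the 13279 genes tested, and opposite directions of either kind by 62.1%. The MKI column, which enters each of the differences above, stood apart from the other 3.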

How the results depend on the processing

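No paired analysis was possible because the columns carry no replicate numbers and each genotype has 1 column; for the same reason no replicate could be left out. A background by protein length was not run. Of 342 differences of single genes under the alternatives (the 9 members and Dlk1), 336 stayed on their side of the 2-fold threshold and 0 of those past it changed sign. Among these, the 60 without a filter and the 42 with the 5 FPKM filter could not move. A filter only selects genes and leaves each gene's difference as it was. With a pseudocount of 1 the members' median was -0.91 for MKI against WT and 0.97 for HOMO against MKI, and Notch4 (0.97, HOMO against MKI), Dll3 (-0.999, MKI against PKI) and Dll4 (-0.91, MKI against WT) came under 2-fold. With 0.1, Notch4 in MKI against WT (-1.22) and Dll4 in HOMO against MKI (1.33) came past it. A pseudocount moves low genes by its construction. Under quantile normalization Dll3 in MKI against PKI was at -0.87, which left 2 members past 2-fold there, and the cause was not tested. A filter at 5 FPKM kept 6 members, without Notch4, Dll4 and Jag2, and left 3 past 2-fold in MKI against WT and 3 in HOMO against MKI because fewer were counted. Without a filter 9.14% of all genes were past 2-fold lower in MKI than WT. The depth behind FPKM is unknown, so no counting error can be attached to Notch4 or Dll4 in MKI, both under 1 FPKM.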

Other observations

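Some families of microRNAs known to act on Notch transcripts in other settings were read from the small-RNA table, and they were chosen after values of the table had been seen. The miR-34 and miR-449 family, which shares the seed in capitals, includes these mature forms in RefSeq.
mmu-miR-34a-5p: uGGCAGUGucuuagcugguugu
mmu-miR-34b-5p: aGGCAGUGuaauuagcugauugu
mmu-miR-449a-5p: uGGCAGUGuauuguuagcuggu
With miR-34c-5p added, the family summed to 489 RPM in PKI, 506 RPM in MKI and 632 RPM in HOMO, against 412 RPM in WT, which is 119%, 123% and 153% of WT. The sum was highest in HOMO, where miR-34c-5p made up 507 of the 632 RPM. miR-34b-5p and miR-449a-5p were also highest in HOMO, but miR-34a-5p was at 134% of WT in MKI and 110% in HOMO. The miR-30 family, whose seed is in capitals here, had forms from 125% of WT (miR-30c-5p) to 180% of WT (miR-30e-5p, shown) in MKI.
mmu-miR-30e-5p: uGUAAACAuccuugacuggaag
The family summed to 39960.6 RPM in PKI, 55644 RPM in MKI and 47644.9 RPM in HOMO, against 35448.9 RPM in WT, which is 113%, 157% and 134% of WT. The highest column was MKI, where all 9 genes were lowest. Dll4, a known target of this family in zebrafish and human cells, was at 28.3% of its WT level in MKI, at 0.535 FPKM. Dll3 was at 25.3%, Jag2 at 25.9% and Notch3 at 26.7% there. RPM is a share of the reads of a column, and miR-127-3p alone held 455 RPM in MKI and 794 RPM in HOMO, against 26481 RPM in WT. The part of these microRNAs in the levels of the 9 genes was not tested.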
